A study of Homo sapiens with 29 samples.

Results

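SP5, SOX4 and SOX9 are transcription factors that have each been tied to Wnt signalling, and their transcript levels were followed here in tumors treated with a peptide aimed at β-catenin and TCF. They are 3 of the 13492 genes in the expression table. They were picked from these same libraries because their levels lay in opposite directions over the treatment groups, so the group values that chose them are given as a description, with no test.

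In Wnt signalling, stabilised β-catenin enters the nucleus and joins TCF/LEF proteins, which bind DNA, to switch on target genes. SP5 is a zinc finger factor of the SP family and a direct target of β-catenin and TCF in many cell types, where it also restrains other Wnt targets. SOX4 and SOX9 carry the HMG box DNA-binding domain of the SOX family: SOX4 is abundant in many carcinomas, and SOX9 marks stem and progenitor cells at the base of the intestinal crypt and drives collagen genes in cartilage.

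PolyA RNA was sequenced from 29 tumors of 1 human colorectal adenocarcinoma line, COLO320DM, grown as xenografts in mice that entered treatment at a mean tumor size near 300 mm3. All tumors are labelled 48 h, and they had received Helicon4 at 100 mpk (n = 5), Helicon4 at 30 mpk (n = 6), Helicon4neg at 30 mpk (n = 8) or vehicle (n = 10), the unit mpk being given as the labels have it. Helicon4 is named in the series as a helicon peptide against the β-catenin/TCF pair, and the labels do not say how Helicon4neg differs from it. Only replicate numbers mark the libraries of a group as separate samples, so the spread between them may be partly technical.

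Levels are CPM, the reads of a gene per 1 M reads of its library on the authors' scaling between libraries, and a difference is one of mean log2(CPM + 1) with its standard error, which understates changes of genes near 1 CPM. Depth was 34.3 to 61.6 M reads per library with Helicon4 at 100 mpk, 40.8 to 48.6 M at 30 mpk, 27 to 59.4 M with Helicon4neg and 26.8 to 60.9 M with vehicle, M being mega. Helicon4neg replicate 2 and vehicle replicate 6 had the steepest slopes of log2 values on gene length (-0.321 and -0.186), and are called the libraries that stood apart. Vehicle replicates 4 and 8 came next (-0.135 and -0.132), so vehicle replicate 6 was less clearly separate than Helicon4neg replicate 2. Of 10 colorectal epithelium markers 5 were measured. EPCAM averaged between 27.7 and 32.7 CPM, KRT8 between 171 and 187 CPM and KRT18 between 102 and 122 CPM over the 4 groups, while KRT19 lay under 1 CPM in each group mean. CDX2 averaged 2087 CPM with Helicon4 at 100 mpk, 2652 at 30 mpk, 4109 with Helicon4neg and 3135 with vehicle, and made up most of the summed level of the list. The libraries are bulk tumors, in which fewer cells of a type and less RNA per cell cannot be told apart.

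With Helicon4, SP5 was lower and SOX4 and SOX9 were higher than with vehicle at either dose, while the Helicon4neg and vehicle ranges overlapped for all 3 genes. The ranges did not overlap for 3 of the 3 genes with Helicon4 at 100 mpk against vehicle, a comparison in which 30.2% of all 13373 genes tested passed limma's test at an adjusted p of 0.05. They did not overlap for 3 of 3 at 30 mpk against vehicle, where 11.1% of all genes passed, and for 0 of 3 with Helicon4neg against vehicle, where 4.84% passed. Against Helicon4neg they were apart for 3 of 3 with Helicon4 at 100 mpk (34.8% of all genes passed) and for 2 of 3, SP5 and SOX9, at 30 mpk (15.1% passed). Between the 100 and 30 mpk doses they were apart for SP5 alone (3.60% passed). These counts follow from how the genes were chosen, and comparisons against vehicle, or against Helicon4neg, share those libraries. The shares are of genes passing limma's test, which is another measure than ranges lying apart. The share of all genes whose ranges lie apart was not computed, so the counts have no like background here.

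**Figure D1:**
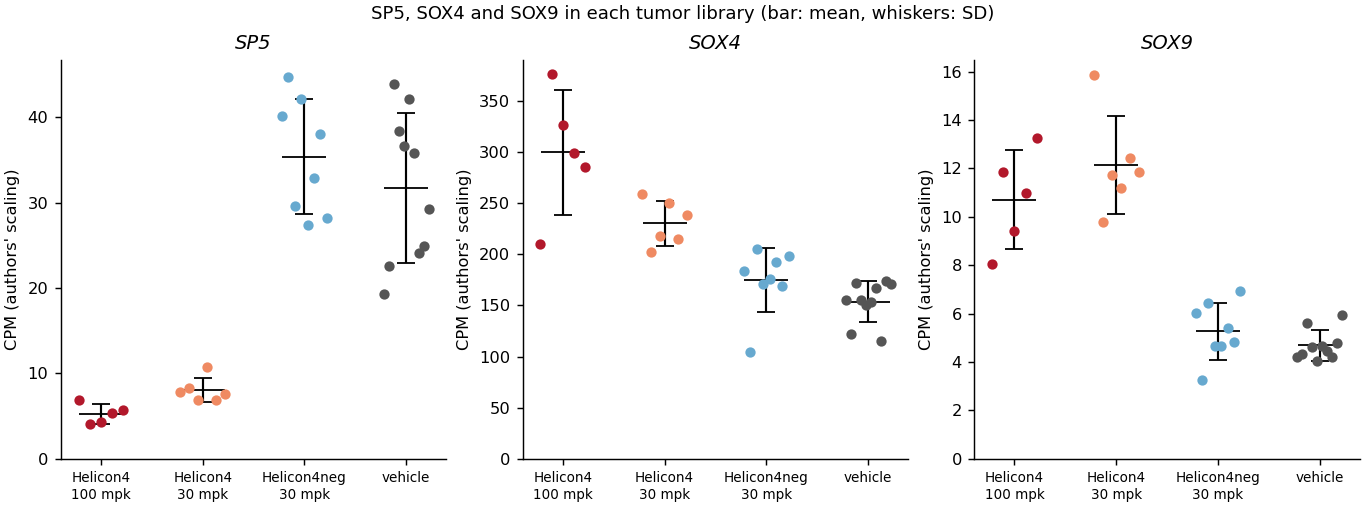
CPM of SP5, SOX4 and SOX9 in each of 29 tumor libraries, by treatment, with 1 point per library, the mean as a bar and the SD as whiskers. SP5 stays at or below 10.7 CPM in every Helicon4 library and at or above 19.2 CPM in every other one, while SOX9 is at or above 8.04 CPM with Helicon4 and at or below 6.93 CPM without it.

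SP5 (ENSG00000204335) lies on the plus strand at chr2:170715351-170718078 (GRCh38, GENCODE 29), and its 2 annotated transcripts have 2 exons each. The 250 bases upstream of its RefSeq start, chr2:170715087-170715336 on the plus strand of GRCh38.p14, are printed because they hold the letters that TCF/LEF proteins are known to bind. Capitals mark CTTTGA and CTTTGT, or their reverse complements.
SP5 upstream window: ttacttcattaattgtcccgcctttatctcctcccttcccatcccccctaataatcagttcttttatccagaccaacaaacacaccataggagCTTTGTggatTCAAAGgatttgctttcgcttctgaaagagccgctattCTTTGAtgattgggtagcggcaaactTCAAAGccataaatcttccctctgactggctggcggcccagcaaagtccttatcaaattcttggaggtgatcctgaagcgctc

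The window holds 4 such matches, none overlapping another, whose first bases lie at positions -157, -147, -109 and -83 from the start. In 35116 windows of the same length upstream of RefSeq genes, searched on both strands, 22.8% had at least 1 match, and 20 windows (0.057%) had 4 or more. The threshold of 4 was set by the SP5 count. The SOX-type letters ACAATG and the GC-box letters GGGCGG, each searched on both strands, were not in the SP5 window and occurred in 9.29% and 42.6% of all windows. A SOX4 window was searched too and held 0 matches to any of these letters, those of TCF/LEF type included. No SOX9 window was searched. A match of letters is a description of the sequence and not a measured binding site.

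SP5 had the lowest levels in the libraries with Helicon4. At 100 mpk it was measured at 6.83, 4.11, 4.24, 5.34 and 5.68 CPM in replicates 1 to 5. At 30 mpk its lowest, median and highest values were 6.86, 7.68 and 10.7 CPM. Each library at 100 mpk was below each at 30 mpk, although the highest of the 5 came within a narrow margin of the lowest of the 6. With Helicon4neg, SP5 was at 27.4, 35.4 and 44.7 CPM (lowest, median, highest). With vehicle it was at 19.2, 32.5 and 43.9 CPM. The Helicon4neg and vehicle ranges overlapped, with 4 of 10 vehicle libraries below all Helicon4neg libraries and 1 of 8 Helicon4neg libraries above all vehicle ones, and both groups lay above every Helicon4 library. The counts behind these values were 145 to 340 reads per library at 100 mpk, 290 to 514 at 30 mpk, 955 to 1982 with Helicon4neg and 612 to 2276 with vehicle.

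The group means of SP5 were 5.24 ± 1.12 CPM with Helicon4 at 100 mpk (SD, n = 5), 8.03 ± 1.42 CPM at 30 mpk (n = 6), 35.4 ± 6.72 CPM with Helicon4neg (n = 8) and 31.7 ± 8.76 CPM with vehicle (n = 10). SP5 with Helicon4 at 100 mpk was thus at 0.166 times its vehicle mean, and at 30 mpk at 0.253 times. The log2 difference from vehicle was -2.36 ± 0.16 at 100 mpk and -1.82 ± 0.16 at 30 mpk (SE). The step between the doses, -0.54 ± 0.18 on the log2 scale for 100 against 30 mpk, had 95% limits of -0.91 and -0.17. For Helicon4neg against vehicle the difference was 0.18 ± 0.14, with limits of -0.11 and 0.47. At the matched dose of 30 mpk, Helicon4 differed from Helicon4neg by -2.0 ± 0.16.

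SOX4 (ENSG00000124766) is a gene of 1 exon on the plus strand at chr6:21592768-21598619. It was the most abundant of the genes, and highest with Helicon4 at 100 mpk, at 211, 377, 327, 299 and 286 CPM in replicates 1 to 5. At 30 mpk the lowest, median and highest values were 203, 228 and 259 CPM. Replicate 1 at 100 mpk fell inside the range of the lower dose, and the other 4 libraries lay above it. Helicon4neg libraries ran from 104 through a median of 180 to 206 CPM. Vehicle libraries ran from 116 through 155 to 174 CPM. Every Helicon4 library was above every vehicle library, whereas 1 of the 6 libraries at 30 mpk lay within the Helicon4neg range. Of the 8 Helicon4neg libraries, 5 were above all vehicle libraries and 1, replicate 2, was below them all.

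SOX4 averaged 299.7 ± 60.8 CPM with Helicon4 at 100 mpk (SD, n = 5), 231 ± 21.9 CPM at 30 mpk (n = 6), 175 ± 31.5 CPM with Helicon4neg (n = 8) and 154 ± 20.3 CPM with vehicle (n = 10). The mean at 100 mpk was 1.95 times and that at 30 mpk 1.5 times the vehicle mean, with log2 differences of 0.95 ± 0.13 and 0.59 ± 0.12 (SE). The difference of 100 from 30 mpk was 0.36 ± 0.14, with 95% limits of 0.06 and 0.65. At 30 mpk, Helicon4 differed from Helicon4neg by 0.42 ± 0.13, and by 0.31 ± 0.11 without the pair of libraries that stood apart. Helicon4neg differed from vehicle by 0.17 ± 0.11 (limits -0.06 and 0.40), and by 0.28 ± 0.10 without that pair. The order of the SOX4 means was therefore 100 mpk, 30 mpk, Helicon4neg and vehicle, and the ranges of neighbours in that order overlapped.

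SOX9 (ENSG00000125398) lies on the plus strand at chr17:72121020-72126420, with 3 exons. With Helicon4 at 100 mpk it was measured at 8.04, 11.9, 9.40, 11 and 13.3 CPM in replicates 1 to 5. At 30 mpk its lowest, median and highest values were 9.81, 11.8 and 15.9 CPM. Unlike SP5, SOX9 was not set apart by dose: 2 of the 5 libraries at 100 mpk lay below all those at 30 mpk, and the others within their range. Helicon4neg libraries ran from 3.27 through a median of 5.11 to 6.93 CPM. Vehicle libraries ran from 4.03 through 4.53 to 5.93 CPM. Every Helicon4 library was above every library of these groups, which overlapped each other. SOX9 rested on 352 to 795 reads per library at 100 mpk, 441 to 781 at 30 mpk, 70 to 389 with Helicon4neg and 118 to 258 with vehicle.

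Mean SOX9 was 10.7 ± 2.05 CPM with Helicon4 at 100 mpk (SD, n = 5), 12.1 ± 2.02 CPM at 30 mpk (n = 6), 5.27 ± 1.18 CPM with Helicon4neg (n = 8) and 4.68 ± 0.622 CPM with vehicle (n = 10). These means were 2.29 times the vehicle mean at 100 mpk and 2.59 times at 30 mpk. On the log2 scale the differences from vehicle were 1.03 ± 0.12 and 1.2 ± 0.12 (SE). The difference of 100 from 30 mpk was -0.17 ± 0.14, with 95% limits of -0.45 and 0.11, and that of Helicon4neg from vehicle was 0.13 ± 0.11, with limits of -0.09 and 0.34. At 30 mpk, Helicon4 differed from Helicon4neg by 1.08 ± 0.12. On recovered reads, without the pseudocount of 1 CPM, edgeR gave 1.2 and 1.38 for SOX9 and -2.59 and -1.98 for SP5 at 100 and 30 mpk against vehicle.

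**Figure D2:**
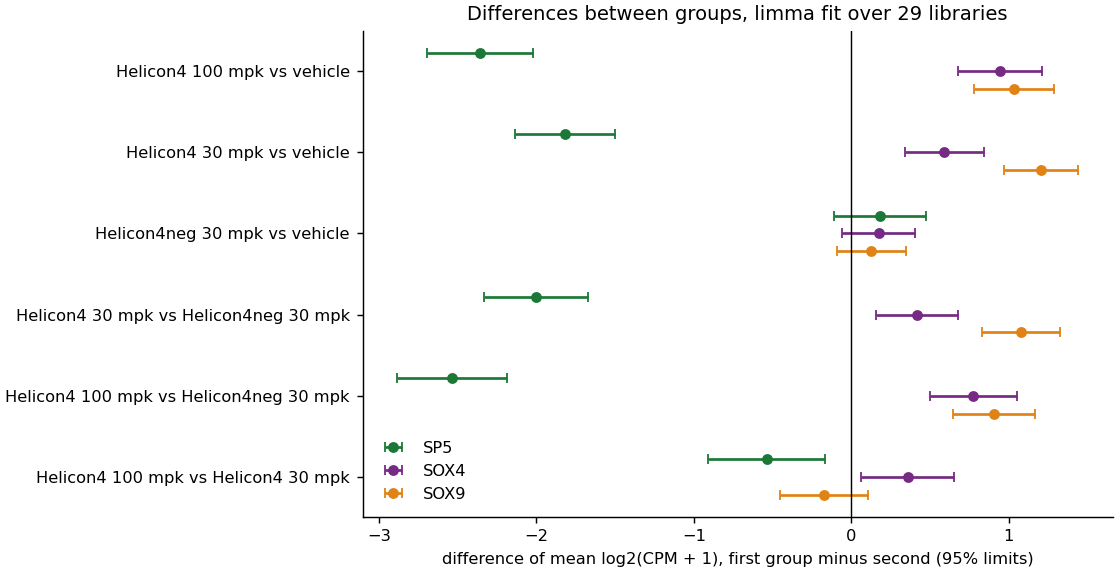
Differences of mean log2(CPM + 1) between groups for SP5, SOX4 and SOX9 from 1 limma fit over 29 libraries; the first group named minus the second, with 95% limits as whiskers. SP5 lies at -2.36 and the SOX genes at 0.95 and 1.03 for Helicon4 at 100 mpk against vehicle, and at 0.18, 0.17 and 0.13 for SP5, SOX4 and SOX9 with Helicon4neg against vehicle.

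The library titles carry codes whose meaning the labels do not state, and no code holds Helicon4 together with vehicle. Within code SH7081, the single library of Helicon4 at 30 mpk had 7.77 CPM of SP5, 259 of SOX4 and 15.9 of SOX9, against means of 33, 187 and 5.72 CPM in 3 Helicon4neg libraries. Within code SH7083, means in 4 libraries at 100 mpk were 5.13 CPM of SP5, 303 of SOX4 and 10.1 of SOX9, against 7.59, 239 and 11.9 CPM in the single library at 30 mpk. Within code SH7080, SOX4 averaged 168 CPM and SOX9 5.01 CPM in 5 Helicon4neg libraries, against 173 and 5.36 CPM in 2 vehicle libraries, while SP5 averaged 36.8 against 27.1 CPM. Without Helicon4neg replicate 2, the other 4 averaged 184 CPM of SOX4, 5.44 of SOX9 and 34.8 of SP5. So SP5, SOX4 and SOX9 kept the pooled directions within the first 2 codes, and the sign of the small SOX4 and SOX9 differences between Helicon4neg and vehicle within the last rested on Helicon4neg replicate 2. With the code as a block, a fit that links Helicon4 to vehicle only through these shared codes, the 100 mpk differences from vehicle were -2.05 ± 0.52 for SP5, 0.71 ± 0.45 for SOX4 and 1.006 ± 0.39 for SOX9.

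The genes were set on 1 scale by dividing by gene length, and SOX4 had the highest level in each group. Per kilobase, SOX4 was at 51.2 CPM with Helicon4 at 100 mpk, 39.4 at 30 mpk, 29.9 with Helicon4neg and 26.3 with vehicle. SP5 was at 2.55, 3.9, 17.2 and 15.4 CPM per kilobase in the same groups. SOX9 was at 2.72, 3.09, 1.34 and 1.19 CPM per kilobase. SP5 ranked well above SOX9 with Helicon4neg and vehicle and close to it with Helicon4. SOX9 exceeded SP5 per kilobase in 4 of 5 libraries at 100 mpk and 1 of 6 at 30 mpk, and in 0 of 8 Helicon4neg and 0 of 10 vehicle libraries. The median ratio of SOX4 to SP5 within a library was 19.7 at 100 mpk, 11.1 at 30 mpk, 1.84 with Helicon4neg and 1.67 with vehicle. Among all genes, the mean level of SP5 per kilobase stood at percentile 31.6 at 100 mpk and 41.9 at 30 mpk, against 79.7 with Helicon4neg and 77.4 with vehicle, and that of SOX4 at 95.2, 93.0, 88.9 and 87.2 in the same order.

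**Figure D3:**
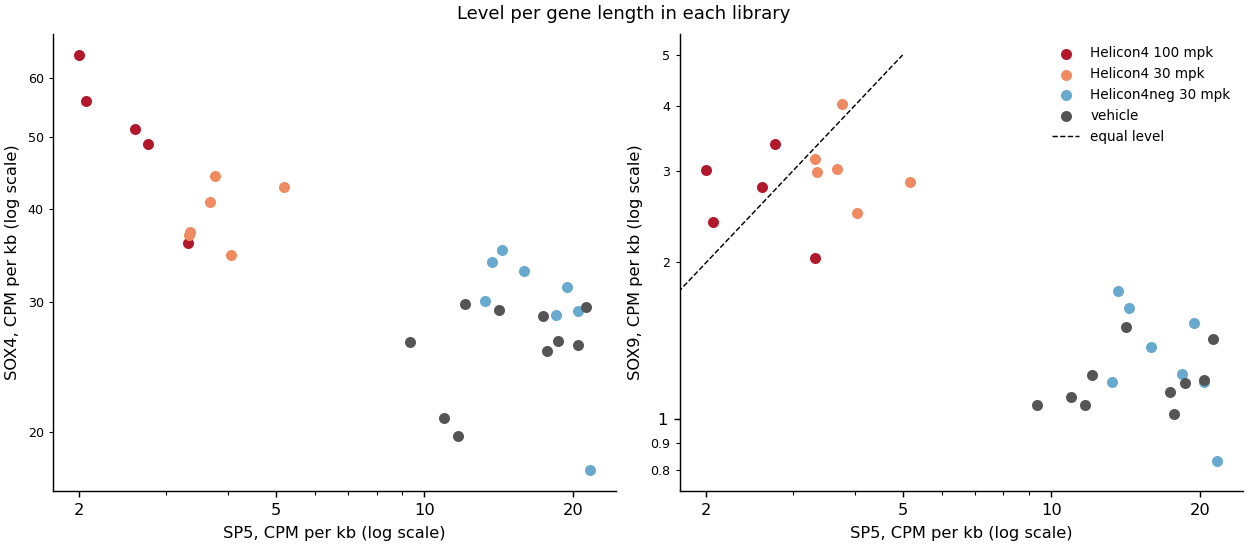
Level per gene length (CPM per kilobase, log scales) of SOX4 (left) and SOX9 (right) against SP5 in each library, coloured by treatment; the dashed line on the right marks equal levels. Helicon4 libraries sit at the upper left, and 4 of the 5 at 100 mpk lie above the line of equal SP5 and SOX9, while all Helicon4neg and vehicle libraries lie at the lower right.

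Whether the genes also varied together among tumors given the same treatment was tested within the groups of at least 6 libraries, since covariation inside a group had no part in the choice of genes. Among the 8 Helicon4neg libraries SOX4 and SOX9 varied together (Pearson r = 0.902, exact permutation p = 0.00129, adjusted p = 0.0232 over 18 relations). The Spearman correlation was 0.857 (exact permutation p = 0.0107, adjusted p = 0.0964), and r was 0.856 without the 2 libraries farthest from the median. The adjusted p passed 0.05 upward when any of replicates 2, 3, 4, 5, 7 or 8 was left out, with r between 0.873 and 0.927 over all such omissions. In vehicle the same pair gave r = 0.583 (permutation p = 0.0572, adjusted p = 0.147) and rho = 0.794 (permutation p = 0.00842, adjusted p = 0.0964), and r = 0.714 without the 2 farthest libraries. With Helicon4 at 30 mpk it gave r = 0.679 (exact permutation p = 0.124, adjusted p = 0.223), a relation that rested on 2 libraries, since r was -0.769 without them.

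SP5 did not share this pattern at the adjusted threshold. SP5 and SOX4 gave r = -0.661 in Helicon4neg (exact permutation p = 0.0207, adjusted p = 0.147), 0.425 in vehicle (adjusted p = 0.383, permutation test) and 0.404 with Helicon4 at 30 mpk (adjusted p = 0.521, exact permutation test). SP5 and SOX9 gave -0.603, 0.335 and -0.289 in the same groups, with adjusted exact or permutation p of 0.217, 0.486 and 0.521. The sign of the coefficients of SP5 with the SOX genes differed between groups, negative for both in Helicon4neg and positive for both in vehicle, and this difference was not tested. In Helicon4neg their size depended on the scaling. Over the other scalings and a pseudocount of 0.1, r ran from -0.673 to -0.235 with SOX4 and from -0.61 to -0.288 with SOX9. The main axis of variation left after removing group means carried 53% of the residual variance. SOX4 followed this axis in Helicon4neg with r = 0.930 (exact permutation p = 0.0382, adjusted p = 0.147), and with r = 0.464 without the 2 farthest libraries, replicate 2 among them.

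Other members of the gene families and other Wnt-linked factors were taken from lists, and read in 2 comparisons that share no library: Helicon4 at 100 mpk against vehicle, and Helicon4 at 30 mpk against Helicon4neg. Of 7 other SOX genes measured, 2 rose and 0 fell at 100 mpk, in a comparison where 14.3% of all genes rose and 15.9% fell. These were SOX21, a repressor known from neural progenitors (log2 difference 0.44 ± 0.10, limma adjusted p = 0.000966), and SOX13, a SOXD factor (0.35 ± 0.10, limma adjusted p = 0.00842). In the comparison with Helicon4neg 1 of the 7 rose and 0 fell, SOX13 (0.32 ± 0.10, limma adjusted p = 0.0238), where 7.78% of all genes rose and 7.31% fell. The median log2 difference of the 7 was -0.03 at 100 mpk and -0.04 at 30 mpk, beside medians of 0.0051 and -0.0029 for all genes. With each library scaled to the same sum (1 M), 61.2% of all calls were rises at 100 mpk against vehicle, beside 47.3% as deposited, and 69.6% beside 51.6% at 30 mpk against Helicon4neg.

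Of 19 SP and KLF genes, the zinc finger factors related to SP5, 4 rose and 5 fell with Helicon4 at 100 mpk against vehicle. In that comparison 14.3% of all genes rose and 15.9% fell. The median difference of the 19 was 0.10. The 9 calls became 5 without replicate 2 or without replicate 3 at 100 mpk, and those of KLF13, KLF12 and KLF9 were lost in 18, 7 and 6 of 41 other settings. SP6, a close relative of SP5 known from tooth and limb development, rose to 44.6 ± 12.7 CPM (SD, n = 5), against 21.2 ± 5.20 CPM with vehicle (n = 10), a log2 difference of 1.02 ± 0.17 (limma adjusted p = 2.73e-05). SP7, the bone factor osterix, went the other way, at 0.879 against 2.21 CPM (-0.77 ± 0.14, limma adjusted p = 5.86e-05). KLF15 (-0.67 ± 0.13) and the gut differentiation factor KLF4 (-0.64 ± 0.16) also fell. At 30 mpk against Helicon4neg, where 7.78% of all genes rose and 7.31% fell, 1 of the 19 rose and 5 fell, with a median of -0.21. KLF4 fell furthest of this list, to 0.485 ± 0.0851 CPM (n = 6), against 2.53 ± 0.981 CPM (n = 8). KLF2 (-1.10 ± 0.23), SP7 (-0.64 ± 0.13) and KLF12 (-0.55 ± 0.17) fell as well. Without both libraries that stood apart 1 rose and 9 fell. SP6 differed by 0.34 ± 0.17 at 30 mpk against Helicon4neg with all libraries and did not pass (limma adjusted p = 0.182). KLF4 averaged 1.05 CPM with vehicle and rose with Helicon4neg against vehicle (0.75 ± 0.14, limma adjusted p = 0.00201). At 30 mpk against vehicle, KLF4 (-0.44 ± 0.16) and KLF2 (-0.47 ± 0.22) did not pass, while SP7 and KLF12 fell (limma adjusted p = 0.0102 and 0.0214). KLF4 stayed at or below 0.568 CPM with Helicon4, and met the filter (1 CPM in 5 libraries) through the other groups, where it was higher. SP7 had a median of 0.721 CPM at 100 mpk, and lowest values of 1.25 CPM with vehicle and 1.79 CPM with Helicon4neg. Those groups, where SP7 was higher, were enough for it to meet the filter. KLF4 and SP7 count among the called genes in both comparisons.

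Of 16 further transcription factors linked to Wnt signalling, 4 rose and 5 fell at 100 mpk against vehicle, with a median difference of -0.04. In that comparison 14.3% of all genes rose and 15.9% fell. Of the 16, those with the smallest adjusted p all fell: CDX2, the intestinal identity factor (-0.59 ± 0.13), ETS2 (-0.39 ± 0.09), TCF7, itself a β-catenin partner (-0.53 ± 0.13), and ASCL2, a factor of intestinal stem cells (-0.72 ± 0.20). The 4 that rose were ID2 (0.65 ± 0.19), TBX3 (0.44 ± 0.15), MSX1 (0.42 ± 0.16) and TCF7L2 (0.36 ± 0.12), which like TCF7 is of the TCF/LEF family. LEF1 (-0.02 ± 0.09) and TCF7L1 (-0.04 ± 0.11) of that family did not pass (limma adjusted p = 0.891 and 0.814). At 30 mpk against Helicon4neg, where 7.78% of all genes rose and 7.31% fell, 0 of the 16 rose and 4 fell, with a median of -0.12. They were MSX2 (-0.68 ± 0.13), CDX2 (-0.63 ± 0.12), JUN, a subunit of AP-1 (-1.33 ± 0.29), and ASCL2 (-0.59 ± 0.20, limma adjusted p = 0.0473), whose call was lost in 25 of 41 other settings. At 30 mpk against vehicle 0 of the 16 passed, where 11.1% of all genes did. With Helicon4neg against vehicle, where 4.84% passed, 3 rose and 0 fell: MSX2 (0.58 ± 0.11), CDX2 (0.40 ± 0.11) and JUN (0.92 ± 0.25). JUN averaged 66.9 CPM at 30 mpk, 191 with Helicon4neg and 92.8 with vehicle. The falls of these 3 against Helicon4neg thus include a higher Helicon4neg level.

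SOX9 is known from cartilage as the activator of a set of matrix genes, and 7 of 13 listed cartilage targets were measured here, SOX5 and SOX6 of the SOX list among them. With Helicon4 at 100 mpk against vehicle, where 14.3% of all genes rose and 15.9% fell, 5 of the 7 rose and 0 fell. The median difference of the 7 was 0.44. HAPLN1, the link protein that ties aggrecan to hyaluronan, rose to 11.9 ± 7.24 CPM (SD, n = 5), against 0.598 ± 0.233 CPM (n = 10), a log2 difference of 2.80 ± 0.23 (limma adjusted p = 7.53e-11). Every Helicon4 library had at least 1.65 CPM of HAPLN1, while its median was 0.568 CPM with vehicle and its highest Helicon4neg value 0.586 CPM. HAPLN1 thus met the filter of 1 CPM in 5 libraries through the Helicon4 groups, where it was high, and it counts among the called genes in both comparisons. COL9A1, a chain of collagen IX, rose to 10.0 ± 3.35 CPM against 1.99 ± 0.808 CPM (1.86 ± 0.19, limma adjusted p = 7.51e-09). COL9A2, another chain of collagen IX, and COL2A1, the main collagen of cartilage, rose by 0.47 ± 0.12 and 0.44 ± 0.15, and the COL2A1 call was lost without any one of replicates 2, 3 or 5 at 100 mpk (limma adjusted p = 0.0538, 0.0895 and 0.109). COL11A2 was the other called gene (0.43 ± 0.16, limma adjusted p = 0.0394), and its call was lost in 11 of 40 other settings. The count of 5 became 3 without replicate 2 or replicate 5 at 100 mpk or with the replicate number as a block, and 1 when only genes of at least 5 CPM were tested. At 30 mpk against Helicon4neg, where 7.78% of all genes rose and 7.31% fell, 3 of the 7 rose and 0 fell, with a median of 0.40. HAPLN1 rose to 2.53 ± 0.808 CPM, against 0.431 ± 0.122 CPM (1.28 ± 0.23), COL2A1 to 9.27 ± 1.92 CPM, against 5.38 ± 0.787 CPM (0.68 ± 0.15), and COL11A2 by 0.45 ± 0.16 (limma adjusted p = 0.0484), a call lost in 22 of 40 other settings. The count of 3 became 1 with the 5 CPM filter. COL9A1 differed by 0.40 ± 0.19 at 30 mpk against Helicon4neg and did not pass (limma adjusted p = 0.16).

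COL9A1 ran from 4.89 to 12.7 CPM at 100 mpk and from 2.18 to 4.38 CPM at 30 mpk, with no overlap, and HAPLN1 from 2.67 to 22.5 CPM and from 1.65 to 3.61 CPM, with overlap. Stromal markers moved in some of the same libraries. The summed level of 4 fibroblast markers ran from 41.1 to 49.97 CPM with Helicon4 at 100 mpk, 38.8 to 51.4 at 30 mpk, 23.3 to 44.8 with Helicon4neg and 29.1 to 42.8 with vehicle. Among them COL1A1 averaged 21.4, 21.01, 10.3 and 12.3 CPM and PDGFRA 2.02, 0.838, 0.470 and 0.366 CPM in the same order, while COL3A1 averaged 11.3, 10.7, 13.5 and 11.9 CPM. PDGFRB, at 9.71, 12.1, 11.9 and 12.1 CPM, fell when 100 mpk was set against vehicle (-0.29 ± 0.11, adjusted p = 0.034 by limma). Among 4 measured leukocyte markers CTSS averaged 5.48, 5.38, 10.3 and 9.99 CPM in that order. ITGAM went the other way, at 2.00, 1.92, 1.63 and 1.39 CPM, and rose at 100 mpk against vehicle (0.33 ± 0.10, limma adjusted p = 0.0121). PTPRC (24.1, 21.2, 21.8 and 20.9 CPM) and CSF1R (2.62, 2.49, 2.30 and 2.11 CPM) did not pass at either dose against vehicle. Among 3 neuroendocrine markers NCAM1 averaged 0.782, 0.979, 1.82 and 1.83 CPM and SYP 5.58, 6.86, 8.55 and 8.04 CPM. CHGB, at 2.06, 2.03, 2.77 and 2.00 CPM, did not pass at either dose against vehicle. Of 6 endothelial markers 2 were measured, CLDN5 and EGFL7, with summed levels of 23.9 to 39.2 CPM at 100 mpk, 31.3 to 52.7 at 30 mpk, 40.01 to 146 with Helicon4neg and 38.7 to 94.2 with vehicle. Of 4 chondrocyte markers, 1 (COL2A1) was measured. No mouse genome is named for the alignment, so transcripts of host cells can enter the human gene counts, and the part of stromal cells in the SOX9 and cartilage values was not tested.

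**Figure D4:**
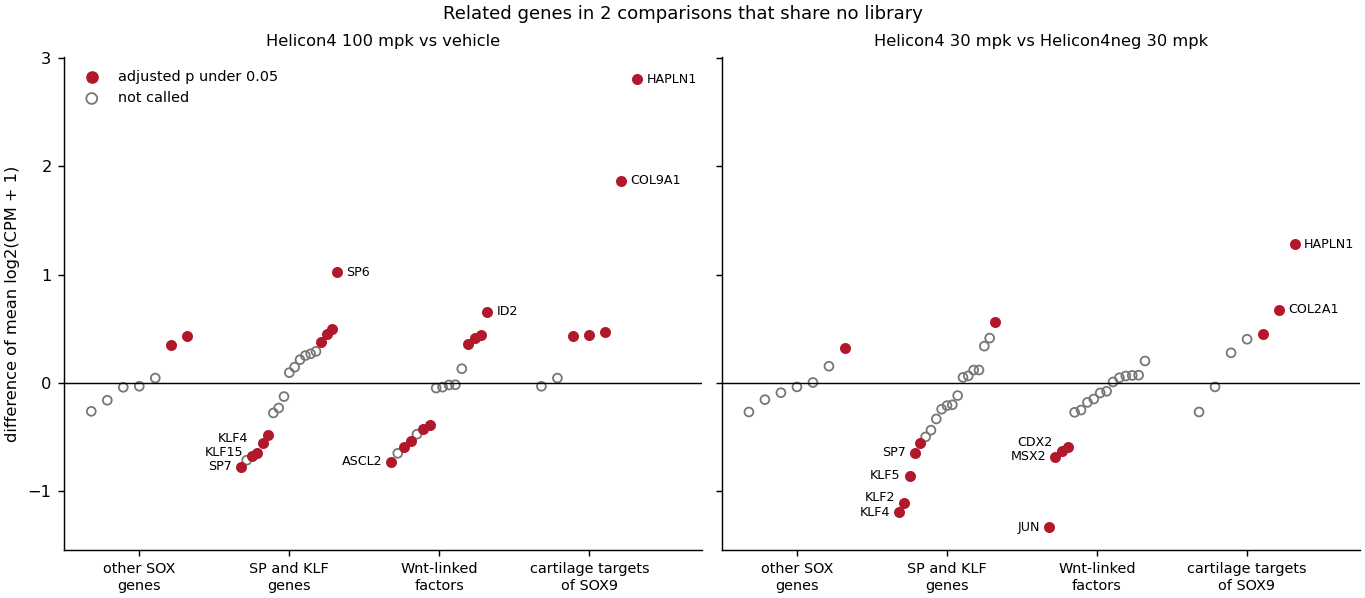
Difference of mean log2(CPM + 1) for each measured gene of 4 lists with Helicon4 at 100 mpk against vehicle (left) and Helicon4 at 30 mpk against Helicon4neg (right); filled points passed an adjusted p of 0.05 and names are given beyond 0.6. Among cartilage targets of SOX9, 5 of 7 on the left and 3 of 7 on the right are filled, all above 0, while the SP and KLF genes are split to both sides. Of all genes, 14.3% rose and 15.9% fell on the left, and 7.78% rose and 7.31% fell on the right.

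Calls were followed over other settings for up to 4 genes per list and comparison with the smallest adjusted p, neighbouring and overlapping genes included. With the title code as a block 29 of these 30 calls were lost. COL9A1 at 100 mpk against vehicle kept its call (limma adjusted p = 0.0274). ASCL2 at 100 mpk against vehicle also turned in sign, to 0.22 (limma adjusted p = 0.915). Outside the 30, at 100 mpk against vehicle, KLF9 (-0.22), KLF6 (-0.35), KLF16 (0.27), ID2 (-0.11) and TBX3 (-0.03) turned in sign too. Their limma adjusted p lay between 0.827 and 0.983. The replicate number as a block ended 5 of the 30, SOX13 in both comparisons, COL2A1 and CDKAL1 at 100 mpk, and COL11A2 at 30 mpk. It also ended the calls of COL11A2, KLF12 and MSX1 at 100 mpk, which are outside the 30 (limma adjusted p = 0.222, 0.150 and 0.172). The scaling to the same sum ended the calls of KLF12 in both comparisons and, at 100 mpk, those of CDKAL1 and MSX2 (limma adjusted p = 0.0516 for MSX2). That of KLF5 at 30 mpk against Helicon4neg was lost too (limma adjusted p = 0.0761). Against Helicon4neg, the SOX13 call was lost without Helicon4neg replicate 1 or without replicates 1, 3 or 5 at 30 mpk (limma adjusted p of 0.0538 to 0.0627), and that of KLF12 without replicates 3 or 5 at 30 mpk (0.0561 and 0.0538). The CDKAL1 call at 100 mpk was lost without replicate 4 (limma adjusted p = 0.0524).

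The genes next to the members on the chromosome were read to see whether the changes extended along it. The nearest measured neighbours of SP5, MYO3B at 60.2 kb and ERICH2 at 65.7 kb, differed by -0.34 ± 0.15 and -0.18 ± 0.12 at 100 mpk against vehicle and did not pass, and ERICH2 fell at 30 mpk against Helicon4neg (-0.49 ± 0.12, limma adjusted p = 0.00514). At 30 mpk ERICH2 had a median of 0.946 CPM. The other groups, where it was higher, were enough for it to meet the filter of 1 CPM in 5 libraries. Of the neighbours of SOX4, the noncoding CASC15 at 66.2 kb differed by 0.34 ± 0.14 at 100 mpk (limma adjusted p = 0.0656). CDKAL1, at 360.4 kb on the other side, fell in both comparisons (-0.33 ± 0.10 and -0.52 ± 0.10, limma adjusted p = 0.0143 and 0.000412), opposite to SOX4. Those of SOX9, MAP2K6 at 2567.2 kb and SLC39A11 at 519.5 kb, did not pass in either comparison, with differences between -0.11 and 0.12. In all 1 of the 6 neighbours passed at 100 mpk against vehicle, where 30.2% of all genes did, and 2 of the 6 at 30 mpk against Helicon4neg, where 15.1% did. The first count became 2 without vehicle replicate 1, 4 or 9 or 100 mpk replicate 5, and 3 without Helicon4neg replicate 2.

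SOX9-AS1, a noncoding gene named after positions were seen, spans SOX9 on the opposite strand and overlaps all 5.4 kb of it. It averaged 3.62 ± 0.821 CPM with Helicon4 at 100 mpk (SD, n = 5), 4.46 ± 0.807 CPM at 30 mpk (n = 6), 2.47 ± 0.520 CPM with Helicon4neg (n = 8) and 3.14 ± 0.466 CPM with vehicle (n = 10). It rose at 30 mpk against Helicon4neg (0.65 ± 0.11, limma adjusted p = 9.22e-05) and did not pass at 100 mpk against vehicle (0.15 ± 0.11, limma adjusted p = 0.339). The overlap is one of whole gene spans, and the exons of the genes were not compared. The sources used here do not state whether reads were counted by strand. Whether reads of SOX9 and of this partner were kept apart is therefore not known.

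The genes whose levels were most like those of each member over all 29 libraries were ranked by Pearson r of log2(CPM + 1) among 10886 genes of at least 5 CPM on average. These coefficients mainly carry the differences between groups and are given as a description. For SP5 they were ZAP70 (0.972), a kinase of T-cell receptor signalling, HMGXB3 (0.971), ZNF385C (0.968), the glutamine transporter SLC1A5 (0.965) and CEBPD (0.961). ZAP70 averaged 2.65 CPM with Helicon4 at 100 mpk, 6.43 at 30 mpk, 78.9 with Helicon4neg and 59.5 with vehicle. Those most opposed to SP5 were KCNMA1-AS1 (-0.962), DENND2A (-0.961) and BMF (-0.953), a BH3-only promoter of cell death. Over the 10 vehicle libraries alone the genes most like SP5 were others: FAM103A1 (0.916), RAC1 (0.894) and PDX1 (0.888).

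For SOX4 the most similar genes were LIMS1 (0.953), NR2F2 (0.950), WNT5A (0.948), NRP2 (0.940) and PRKG2 (0.939). WNT5A, a Wnt ligand best known for signalling without β-catenin, averaged 63.7 CPM with Helicon4 at 100 mpk, 42.7 at 30 mpk, 30.5 with Helicon4neg and 27.9 with vehicle. The most opposed were EIF2B5 (-0.914), EIF3B (-0.908), both translation initiation factors, and TBRG4 (-0.906). Over vehicle libraries alone FGF13 (0.949), MAP3K1 (0.943) and GLCCI1 (0.943) came first.

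For SOX9 the most similar genes were SEMA5A (0.921), PADI2 (0.920), BMF (0.918), MYT1 (0.915) and GPA33 (0.912), a surface antigen of intestinal epithelium. BMF, at 48.7 CPM with Helicon4 at 100 mpk, 35.9 at 30 mpk, 8.65 with Helicon4neg and 9.31 with vehicle, thus stood among the genes nearest to SOX9 and among those most opposed to SP5. The genes most opposed to SOX9 were RASL11B (-0.933), CHD1L (-0.909) and the amino acid transporter subunit SLC3A2 (-0.905). Over vehicle libraries alone the first were FBXO32 (0.937), MKRN1 (0.892) and KDM4D (0.853).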

How the data were processed

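The authors deposited 1 table of 13492 genes by 29 libraries. The deposited values are a signal, namely counts per gene over a scaled library size (CPM), with column sums of 0.921 to 1.26 M, and 0 columns were left without a sample. Per the submitters' processing notes the tools were Trimmomatic 0.39, STAR 2.7.7a, featureCounts (Subread 2.4.2) and edgeR 4.0.2 with GRCh38; settings and annotation are not given in the sources used here, and no mouse genome is named. Per the labels' protocols the NEBNext Ultra II Directional kit is named under extraction and a TruSeq stranded mRNA kit for the libraries. Over every library 100% of the values came out as whole reads, to a tolerance of 0.05 reads, which gave the depths and the reads for edgeR 4.0.16 and DESeq2 1.42.0.

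Gene lengths came with the table. The 13373 genes with 1 CPM or more in 5 or more libraries were fitted on the log2(CPM + 1) scale by limma 3.58.1 (R 4.3.3) using trend and robust options, 4 groups and no covariate, two-sided, with Benjamini-Hochberg adjustment over all genes and a threshold of 0.05. The design had set a count test for raw counts, and the scaled values took limma. Simulated data were used to test the scripts. Correlations within groups used two-sided permutation tests, exact under 10 libraries and with 100000 permutations at 10.

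SP5, SOX4 and SOX9, the lists and the alternatives were chosen with earlier results of these data known, and nothing drawn from them is independent support. The genes named are SP5, SOX4 and SOX9, up to 4 called members per list and comparison with the smallest adjusted p, all neighbours, and per member the 5 most similar, 3 most opposed and 3 most similar genes in vehicle. Further called members are named where their calls were lost or turned in other settings. List genes are also given where not called, SP6, COL9A1, LEF1 and TCF7L1 among them. IDs and symbols of 67 of 67 listed genes were found in GENCODE 29, and upstream windows came from RefSeq (GRCh38.p14). Alternatives were TMM factors on the values, the same sum (1 M) per library, a pseudocount of 0.1, no filter or at least 5 CPM, limma without trend and robust fitting, only the 2 groups, a replicate or title code block, edgeR and DESeq2 on reads, and libraries left out.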

Additional observations from a re-analysis of the deposited data

Results flagged for a closer look

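SOX4 in Helicon4neg replicate 2, at 104 CPM, lay far below the other 7 Helicon4neg libraries, with a gap to the nearest of them that was 0.634 of the group's range (critical value 0.526). It was 1 of 12 sets of a gene in a group checked, and chance alone puts about 1 set in 20 past that value. The same library had the lowest SOX9 (3.27 CPM) and the highest SP5 (44.7 CPM) of its group, neither past the critical value, and the steepest slope on gene length of all libraries (-0.321). The part of that slope in the SOX4 value was not tested.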

How the results depend on the processing

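The log2 differences of SP5, SOX4 and SOX9 kept their direction in all 6 comparisons, except SOX4 and SOX9 with Helicon4neg against vehicle, which took values of -0.074 and -0.10 once the title code was a block, values that rest on code SH7080, where both genes were higher in Helicon4neg than in vehicle without Helicon4neg replicate 2 (0.088 and 0.012, an omission chosen after seeing the data); SOX9 with Helicon4 at 30 mpk against Helicon4neg became 1.34 there. Replicate numbers did not pair the libraries (correlations of -0.701 to 0.519 over 35 pairs, 15 of them over 0.1, and 0 of 27 libraries closest to their own number), and a replicate block gave -2.418, 1.009 and 1.096 for SP5, SOX4 and SOX9 at 100 mpk against vehicle. For 100 mpk, 30 mpk and Helicon4neg against vehicle, 30 and 100 mpk against Helicon4neg, and 100 against 30 mpk, limma called 4043, 1481, 647, 2018, 4649 and 482 genes, and with the title code block 141, 74, 2, 184, 189 and 10. For Helicon4neg against vehicle the count was 374 with only those groups, 1105 with DESeq2 and 2031 without both libraries that stood apart, and for 100 against 30 mpk it was 750 with DESeq2 and 1052 without both. With 1 library left out, counts ran from 986 (without replicate 1 at 30 mpk) to 2537 (without Helicon4neg replicate 2) for 30 mpk against vehicle, and from 393 (Helicon4neg replicate 4) to 2595 (replicate 2) for Helicon4neg against vehicle. They ran from 209 (100 mpk replicate 2) to 796 (Helicon4neg replicate 2) for 100 against 30 mpk, with 252, 253 and 281 without 100 mpk replicate 3 and 30 mpk replicates 4 and 2. Depth limits SOX9 most, at 70 reads in its shallowest value. The cause of these shifts was not tested.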
